A study of Rattus norvegicus with 6 samples.

Results

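Cells make cholesterol from acetyl-CoA through the mevalonate pathway, and this account follows the genes of that pathway in the aorta of running and non-running hypertensive rats. The genes were 8 named members: Idi1, Fdps, Fdft1, Sqle, Cyp51, Hmgcs1 and Sc5d, which encode enzymes of cholesterol synthesis, and Insig1, which encodes a regulator of it. They were found as the probe sets that carry exactly 1 of these symbols in the platform annotation. This gave 17 of 8799 probe sets, for 6 of the 8 genes, among 4736 genes that the platform names in this way. Hmgcs1 and Sc5d are not analysed here. The set holds no lipoprotein receptor, so the receptors are described only from the uptake genes measured beside it.

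Both groups were spontaneously hypertensive rats (SHR), an inbred strain with high blood pressure. Runners had voluntary use of a wheel cage for 5 weeks, and non-runners did not run; the series asks how voluntary exercise affects the aorta. There were 3 arrays per group, lettered A to C as the chips are in the labels, which also letter the runner chips D to F in brackets. Total RNA of 3 pooled aortae went onto each chip. Age and sex are not given in the sources used here. Nor is it stated whether the pools of a group were prepared separately, so p-values measure only the spread between chips.

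In the pathway, acetyl-CoA units are joined and reduced to mevalonate, which is turned into isoprenoid diphosphates, then squalene, and after ring closure through a series of sterols into cholesterol. Transcription of nearly all these enzymes is driven together by sterol regulatory element binding proteins (SREBPs). When sterols are plentiful, Insig proteins hold the SREBPs in the endoplasmic reticulum, and Insig1 is itself an SREBP target. The vessel wall makes some cholesterol of its own and takes up the rest from lipoproteins.

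SREBPs act with the factor NF-Y, which binds CCAAT, and often with Sp1, which binds the GC box GGGCGG. Promoter windows from RefSeq (GRCr8), running from 250 bases before to 50 bases after the gene start, were given for 4 of the 6 measured genes. They are shown because these genes are known for shared control, and their levels are compared array by array in what follows. The windows are chr17:66547475-66547774 (minus strand) for Idi1, chr2:176804767-176805066 (minus strand) for Fdps, chr4:30991443-30991742 (plus strand) for Cyp51 and chr4:8057720-8058019 (minus strand) for Insig1. Each reads 5′ to 3′ on the gene's strand, and capitals mark matches to CCAAT or GGGCGG on either strand, so that ATTGG and CCGCCC are matches on the opposite strand.
Idi1: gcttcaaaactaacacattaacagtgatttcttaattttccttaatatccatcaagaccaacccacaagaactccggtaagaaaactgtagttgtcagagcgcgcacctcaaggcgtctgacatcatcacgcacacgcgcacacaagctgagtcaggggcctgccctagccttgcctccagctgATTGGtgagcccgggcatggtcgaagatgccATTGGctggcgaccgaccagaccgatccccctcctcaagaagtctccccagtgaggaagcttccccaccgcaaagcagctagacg
Fdps: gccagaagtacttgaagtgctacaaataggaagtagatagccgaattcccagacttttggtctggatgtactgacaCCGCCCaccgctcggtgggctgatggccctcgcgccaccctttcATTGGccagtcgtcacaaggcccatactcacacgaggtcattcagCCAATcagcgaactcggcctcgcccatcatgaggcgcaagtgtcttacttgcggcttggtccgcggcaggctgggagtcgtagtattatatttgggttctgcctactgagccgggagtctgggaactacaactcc
Cyp51: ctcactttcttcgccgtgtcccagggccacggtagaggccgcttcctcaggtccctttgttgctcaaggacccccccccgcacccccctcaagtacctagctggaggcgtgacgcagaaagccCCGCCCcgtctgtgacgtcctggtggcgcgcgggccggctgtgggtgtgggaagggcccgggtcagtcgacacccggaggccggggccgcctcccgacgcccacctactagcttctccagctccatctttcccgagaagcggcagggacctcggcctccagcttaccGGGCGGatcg
Insig1: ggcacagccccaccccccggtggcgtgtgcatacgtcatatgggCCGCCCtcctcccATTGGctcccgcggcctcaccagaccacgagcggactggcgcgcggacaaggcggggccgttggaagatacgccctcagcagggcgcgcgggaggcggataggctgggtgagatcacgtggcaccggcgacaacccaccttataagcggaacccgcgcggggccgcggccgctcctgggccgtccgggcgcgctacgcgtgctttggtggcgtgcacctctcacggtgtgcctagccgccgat
CCAAT was found in 3 of the 4 windows, with 2 matches each for Idi1 and Fdps, 1 for Insig1 and 0 for Cyp51. GGGCGG was found in 3 of the 4, with 2 matches for Cyp51, 1 each for Fdps and Insig1 and 0 for Idi1. Of 33469 promoter windows of this length, 37.5% held CCAAT and 33.1% held GGGCGG. The sterol regulatory element was searched as TCACNCCAC on both strands, where N is any base. It matched 0 of the 4 windows and 1.12% of all windows, which says only that these letters are not within these bases. No 2 matches overlapped.

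The deposited values are intensities on a linear scale. As a guide to background, 19 control probe sets for yeast genes or sense strands were taken, and 95% of their values lay under 40.8. This is called the control level. Of the 17 member probe sets, 8 lay above it on all 6 arrays and 3 lay below it on all 6. Differences were tested as log2 of the intensity plus 2.4, quantile normalized, with limma over 5244 probe sets. One dim probe set for Idi1 (rc_AI045395_at, 0.7 to 6.6) fell to the filter on low values, and the other 16 member probe sets were tested.

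Smooth muscle transcripts were bright, as in aorta, with Acta2 (smooth muscle actin) at 4080 ± 288 in runners and 4052 ± 987 in non-runners (intensity, SD, n = 3 each). Ucp1, of brown fat, was bright too, at 1200 ± 324 in runners and 1251 ± 431 in non-runners. Non-runner B stood apart: its beta-actin 3′/5′ intensity ratio, a measure of 5′ loss in the RNA or target, was 2.14, and the other arrays had 1.22 to 1.67. In these pooled tissue samples, fewer cells of a type and less RNA per cell cannot be told apart.

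None of the members passed the test between runners and non-runners. By limma with Benjamini-Hochberg adjustment, 0 of the 16 probe sets were called higher and 0 lower (0% of all 5244 in each direction), and their adjusted p ran from 0.636 to 0.990. At an unadjusted p under 0.05 the members also gave 0 in this fit, where 3.83% of all probe sets were higher and 4.23% lower. The log2 difference was above 0 for 13 of the 16 member probe sets, against 49.2% of all probe sets. Taking the brightest probe set of each gene, all 6 differences were above 0, with a median of 0.26, while 46.1% of the 3173 tested genes were above 0 and their median was -0.021. Several of the 16 read the same gene, so they are not separate measurements.

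The median moved with single arrays. It was 0.051 without non-runner B, 0.083 without runner A, 0.096 without runner B, 0.39 without non-runner A and 0.47 without runner C. Adding each array's beta-actin 3′/5′ ratio to the model gave 0.13, and limma's array weights also gave 0.13.

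Idi1, the isomerase that interconverts the isoprenoid building blocks isopentenyl and dimethylallyl diphosphate, measured 122.7, 148.7 and 59.9 on runner arrays A, B and C, against 110.3, 67.8 and 75.4 on non-runner arrays A, B and C (AF003835_at). Runners A and B were the highest of the 6 arrays and runner C the lowest, so the groups overlapped fully. The means were 110 ± 45.7 in runners and 84.5 ± 22.7 in the non-runners (SD, n = 3 each), and the log2 difference was 0.28 ± 0.35 (SE, limma adjusted p = 0.847). Its 95% interval, as a fold on the log2(intensity + 2.4) scale, ran from 0.691 to 2.14.

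Fdps, farnesyl diphosphate synthase, makes the isoprenoid from which sterols, dolichol and protein prenyl groups branch. Its brightest probe set (M89945mRNA_at) measured 346.5, 328.5 and 217.9 in runners A, B and C, against 256.6, 157.9 and 272.5 in non-runners A, B and C. Runners A and B lay above every non-runner array, and runner C lay below non-runners A and C. The log2 difference was 0.37 ± 0.26 (SE, limma adjusted p = 0.748), with a fold interval of 0.848 to 1.98.

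A second probe set from the same sequence record of Fdps (M89945mRNA_g_at) measured 190.9, 166.6 and 103.4 in runners and 114.5, 61.3 and 124.6 in non-runners. The arrays fell in nearly the same order, again with runner C under non-runners A and C. It had the largest difference of the 16 probe sets, 0.63 ± 0.32 on the log2 scale (SE, limma adjusted p = 0.650). The third, rc_AI180442_at, lay below the control level on every array except runner A (45.1), so no fold is given for it.

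Fdft1, squalene synthase, joins farnesyl diphosphate molecules and commits the pathway to sterols. It measured 80.5, 66.4 and 43.1 in runners A, B and C, against 77.3, 28.4 and 56.8 in non-runners A, B and C (M95591_at). Only non-runner B lay below the control level, and runner C came next above it. The means were 63.3 ± 18.9 in runners and 54.2 ± 24.6 in the non-runners (SD, n = 3 each), with a log2 difference of 0.24 ± 0.36 (SE, limma adjusted p = 0.876). The other 3 Fdft1 probe sets lay near or below the control level and differed by 0.15, -0.061 and -0.0096 on the log2 scale.

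Sqle, squalene epoxidase, inserts oxygen into squalene and is one of the steps that limit flux. It measured 100.5, 103.1 and 66.8 in runners A, B and C, against 94.8, 65.8 and 89.3 in non-runners A, B and C. Runner C and non-runner B were alike and lowest, and the other 4 arrays lay between 89.3 and 103.1. The log2 difference was 0.085 ± 0.23 (SE, limma adjusted p = 0.939), and its fold interval was 0.730 to 1.54.

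Cyp51, lanosterol demethylase, is the cytochrome P450 that acts on the first sterols of the pathway. In its brightest probe set (U17697_s_at) it measured 186.4, 183.0 and 120.9 in runners A, B and C, against 139.8, 128.0 and 186.9 in non-runners A, B and C. Here runner C was the lowest of all arrays and non-runner C the highest. The log2 difference was 0.099 ± 0.23 (SE, limma adjusted p = 0.920).

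The 5 probe sets of Cyp51 did not give the same picture. In rc_AA997614_s_at, the runner arrays A, B and C measured 71.3, 75.5 and 75.3, against 66.8, 27.9 and 58.8 in non-runners A, B and C. All runners lay above all non-runners there, and the log2 difference was 0.57 ± 0.28 (SE, limma adjusted p = 0.650), with non-runner B far below the other 5 arrays. It was the 1 member probe set of 16 whose normalized groups did not overlap in the higher direction, where 7.13% of all probe sets did so, and 0 of 16 did so in the lower direction, where 7.76% of all probe sets did. The other 3 differed by 0.19, 0.043 and -0.22, the last from a probe set (rc_AI230255_at) below the control level throughout.

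Insig1 was the brightest member. Its probe set L13619_g_at measured 504.0, 377.3 and 431.4 in runners A, B and C, against 273.7, 304.2 and 408.3 in non-runners A, B and C. Only non-runner C reached into the runner range, above runner B. The means were 438 ± 63.6 in runners and 329 ± 70.6 in the non-runners (SD, n = 3 each), with a log2 difference of 0.42 ± 0.19 (SE, limma adjusted p = 0.636), the lowest adjusted p of the members.

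The second Insig1 probe set, L13619_at, measured 440.1, 401.2 and 365.2 in runners and 335.0, 239.9 and 396.0 in non-runners. Non-runner C again overlapped the runners, and the log2 difference was 0.33 ± 0.20 (SE, limma adjusted p = 0.717). The fold intervals of the 2 probe sets ran from 0.985 to 1.82 and from 0.908 to 1.74, so both include no change.

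**Figure D1:**
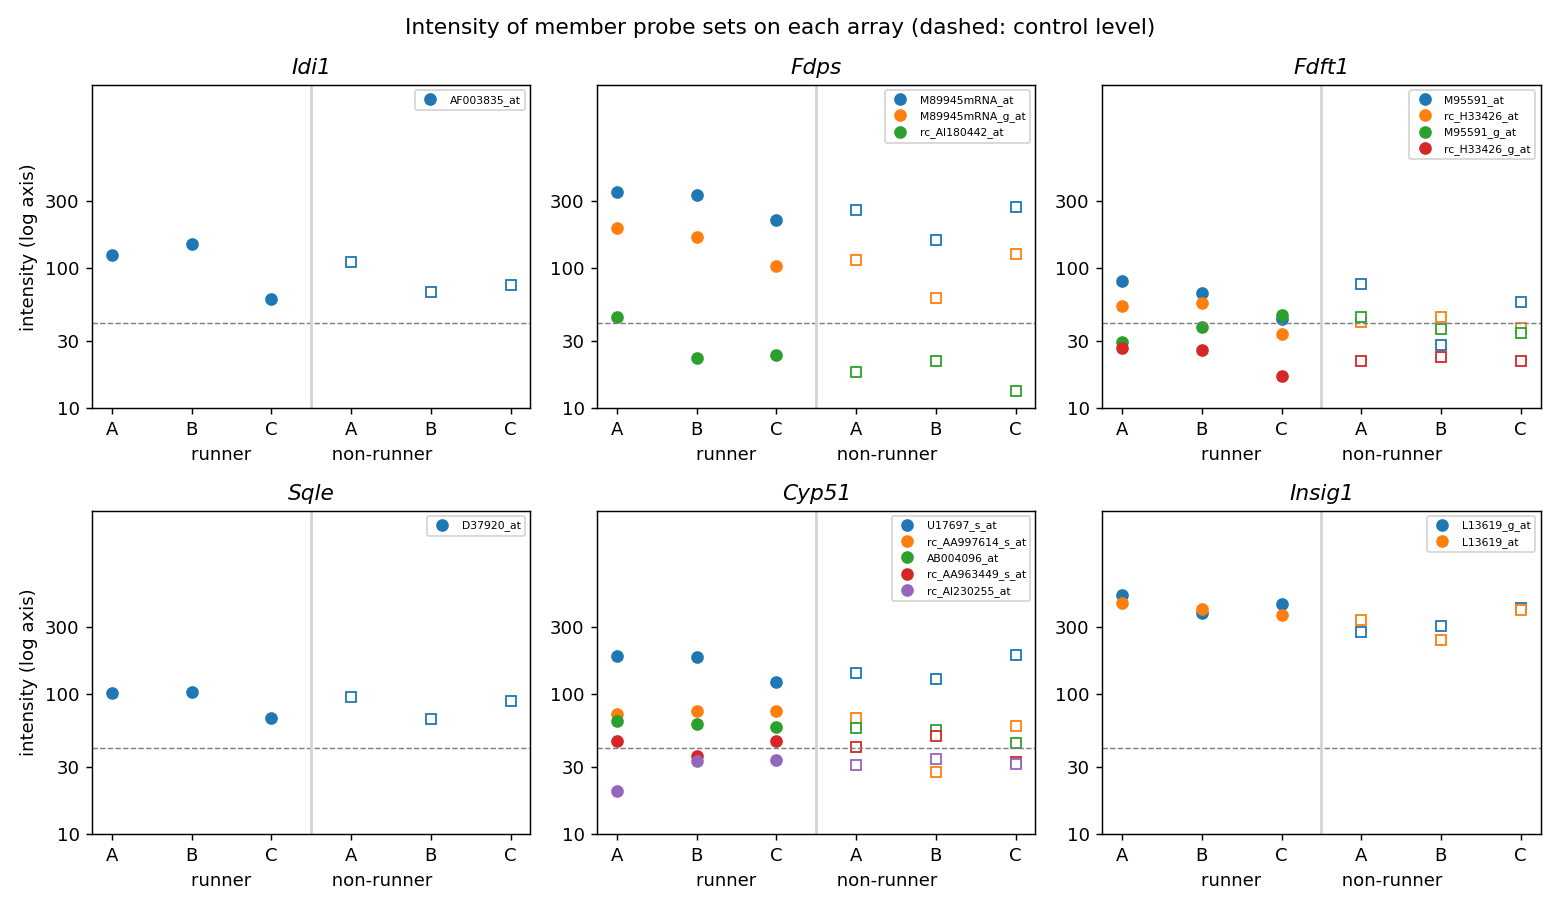
Intensity (log axis) of each tested member probe set on each array, with runners as filled circles on the left and non-runners as open squares on the right of each panel; the dashed line is the control level of 40.8. Runner C and non-runner B are low for Idi1, Sqle and the brightest probe sets of Fdps and Fdft1, while both Insig1 probe sets stay above 239 on every array.

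**Figure D2:**
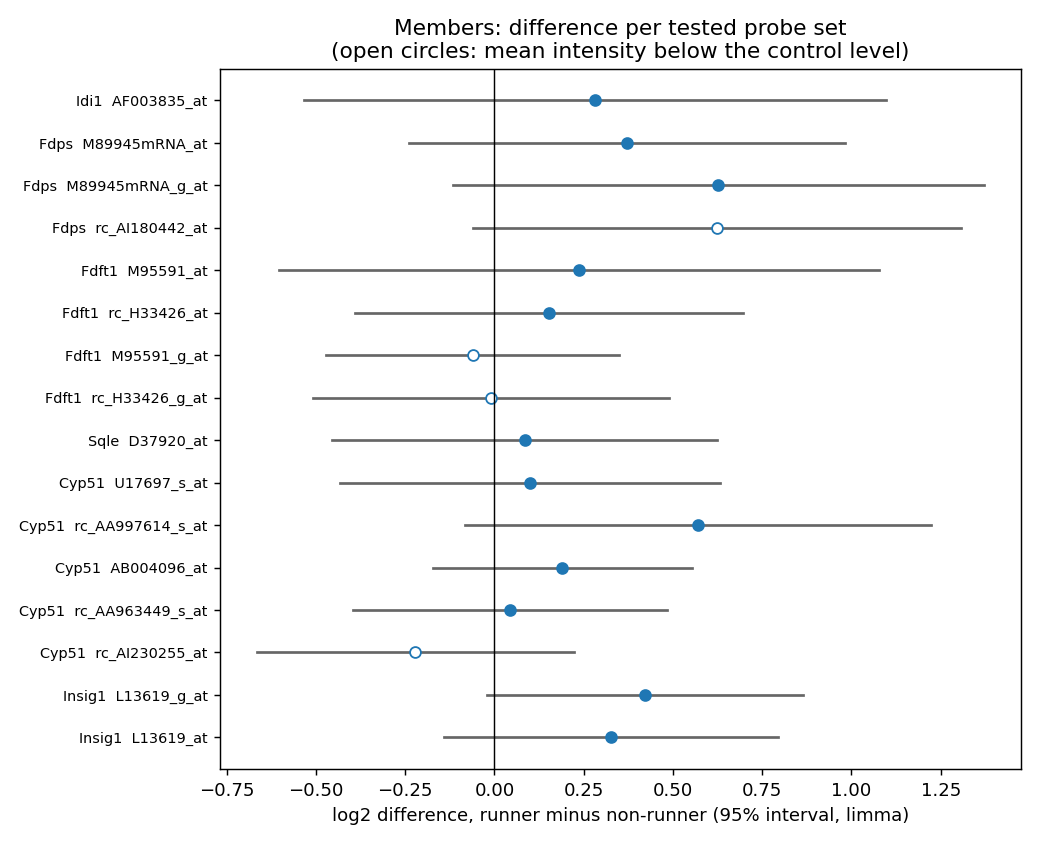
Log2 difference, runner minus non-runner, of the 16 tested member probe sets, with limma's 95% interval; open circles mark a mean intensity below the control level. Every interval includes 0, and 13 of the 16 points lie above 0.

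In their brightest probe sets, the 5 enzymes shared an order of arrays that did not follow the groups. Each of them was there lowest on runner C among the runners and lowest on non-runner B among the non-runners. Other probe sets of these genes did not all keep this order. M89945mRNA_g_at of Fdps kept it. Among non-runners, Fdft1 rc_H33426_at was highest on B (45.0). Among runners, Cyp51 rc_AA997614_s_at was lowest in intensity on A (71.3), not C (75.3). Of all tested genes, 33.6% were lowest on runner C among runners, 33.4% were lowest on non-runner B among non-runners, and 11.03% were both. Runner C and non-runner B were picked because the members were low there, so these shares are background and not a test. Insig1 was lowest on runner B and on non-runner A in its brightest probe set. Its other probe set, L13619_at, was lowest on runner C (365.2) and on non-runner B (239.9), as the enzymes were. Averaged over the 5 enzymes, the log2 level relative to each gene's own mean was 0.38, 0.36 and -0.42 on runners A, B and C, against 0.14, -0.52 and 0.057 on non-runners A, B and C.

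Across the 6 arrays, the Pearson correlation of log2 levels in the 10 pairs of enzymes ran from 0.68 (Idi1 with Cyp51) to 0.92 (Fdps with Fdft1). Between Insig1 and each enzyme it ran from 0.050 to 0.54, all by brightest probe sets. These values describe 6 arrays in 2 groups that all genes share, and no test was made of them. In non-runner B the low values go with the high 3′/5′ ratio. Runner C had the lowest beta-actin ratio of all arrays, 1.22, and stood out by red cell transcripts, with Hbb (a beta-globin) at 2910.5 there, with 1472.7 and 1445.7 on runners A and B, against 888.7 to 1310.7 in non-runners. Brown fat markers, 4 tested genes of 6 listed, were also lowest on runner C among runners and on non-runner B among non-runners. Their mean log2 level, relative to each gene's own mean, was -0.031, 0.25 and -0.30 on runners A, B and C. On non-runners A, B and C it was 0.26, -0.53 and 0.35. The brightest probe sets of Ucp1, Cidea and Cpt1b kept this order, and that of Adrb3 did not. The part of any of these in the enzyme levels was not tested.

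The genes most like the members' mean profile over the 6 arrays, among 3167 other genes, were Slc25a20 (r = 0.98), Pfkl (0.98), Mpst (0.97), Ndufa6 (0.95), Ndufb2 (0.95) and Add3 (0.95). Slc25a20, the mitochondrial carnitine carrier, measured 104.8, 93.2 and 72.4 in runners A, B and C, against 86.4, 56.2 and 82.2 in non-runners A, B and C. It too was lowest on runner C among runners and on non-runner B overall. With 6 arrays, 29 genes had r above 0.9.

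Among other enzymes of the same pathway, 15 were listed, 10 were on the array and 7 were tested, while Mvk, Lbr and Hsd17b7 were too dim. By limma 0 of the 7 passed after adjustment, 5 were higher and 2 lower in value, and the median log2 difference was 0.31. At an unadjusted p under 0.05 there were 2, Acat2 and Dhcr7, both higher, where 2.93% of all tested genes were higher and 4.48% lower. By the brightest probe set of each, 3 of the 7 were lowest on runner C among runners and 2 on non-runner B among non-runners. In 4 of them, Acat2, Dhcr7, Ebp and Nsdhl, every runner array lay above every non-runner array, where 6.08% of all tested genes did so. Nsdhl was named after its values were seen. Unlike the members' score, the mean log2 level of these 7, each relative to its own mean, did not overlap between groups, at 0.20, 0.080 and 0.046 on runners A, B and C, against -0.067, -0.091 and -0.17 on non-runners A, B and C.

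Acat2, the cytosolic thiolase that begins the pathway, measured 256.2, 229.9 and 196.3 in runners A, B and C, against 167.2, 172.2 and 169.2 in non-runners A, B and C. The log2 difference was 0.40 ± 0.15 (SE, limma adjusted p = 0.585), and 0.68 ± 0.21 in its dimmer probe set (limma adjusted p = 0.515). The non-runner arrays lay within a narrow range and all under the lowest runner.

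Dhcr7, the reductase of the last step to cholesterol, measured 101.8, 80.0 and 90.5 in runners A, B and C, against 75.7, 67.1 and 61.3 in non-runners A, B and C. The log2 difference was 0.39 ± 0.16 (SE, limma adjusted p = 0.592). The groups were separate in this probe set, while in the second non-runner C (65.6) came close to runner C (66.2) and the normalized groups overlapped.

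Mvd, the decarboxylase before Idi1, measured 64.0 ± 8.3 in runners and 50.9 ± 12.1 in the non-runners (SD, n = 3 each). Ebp, a sterol isomerase, measured 46.6 ± 2.0 in runners and 39.6 ± 1.2 in the non-runners. Its non-runner arrays all lay under the control level of 40.8 and its runner arrays not far above it. Nsdhl, a sterol dehydrogenase, measured 33.6 ± 3.8 in runners and 25.2 ± 2.2 in the non-runners, both under the control level. All 3 had higher means in runners, with limma adjusted p of 0.732, 0.726 and 0.643.

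Lss, lanosterol synthase, measured 52.7 ± 9.2 in runners and 56.8 ± 17.9 in the non-runners (SD, n = 3 each). Msmo1, a sterol methyl oxidase, measured 206 ± 29.6 in runners and 205 ± 38.7 in the non-runners, and was brightest on non-runner B (249.9). For neither gene did the groups separate in these probe sets, and the limma adjusted p was 0.911 and 0.995. The dimmer Msmo1 probe set (E12625cds_at) was instead lowest on non-runner B (43.5) and, among runners, on runner C (60.1). Its log2 difference was 0.27 ± 0.21 (SE, limma adjusted p = 0.754).

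**Figure D3:**
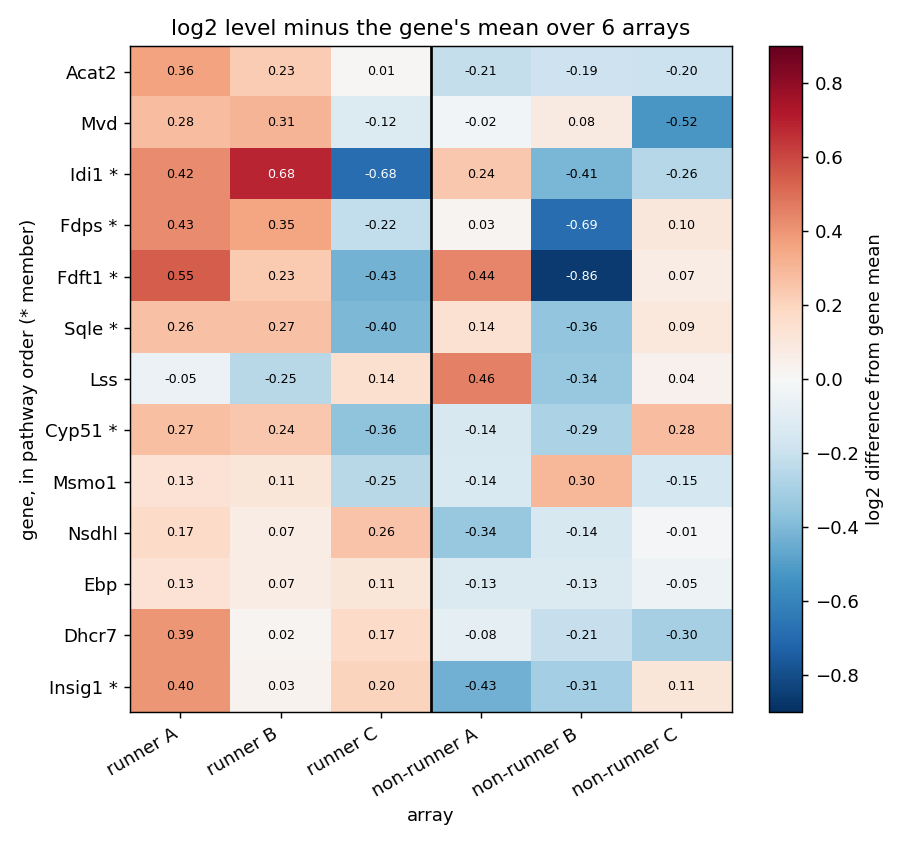
Log2 level of each gene on each array minus the gene's mean over the 6 arrays, for the brightest tested probe set, in pathway order with Insig1 last; asterisks mark the members and the black line parts runners (left) from non-runners (right). The 5 member enzymes are below 0 on runner C (-0.22 to -0.68) and on non-runner B (-0.29 to -0.86), while Dhcr7, Ebp and Nsdhl are above 0 on all runner arrays and below 0 on all non-runner arrays.

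Fatty acid synthesis genes, which the SREBPs also drive, were unlike the members on runner C. Over 9 tested genes their mean log2 level, relative to each gene's own mean, was 0.33, 0.30 and 0.39 on runners A, B and C, against -0.31, -0.75 and 0.044 on non-runners A, B and C. The members' mean was 0.39, 0.30 and -0.32 on runners A, B and C, against 0.045, -0.48 and 0.066 on non-runners A, B and C. Both lists were lowest on non-runner B, but runner C was the highest array for fatty acid genes and the second lowest for the members. The difference between the lists was not tested. All 9 fatty acid genes were higher in value, with a median of 0.63, and by limma 0 passed after adjustment. At an unadjusted p under 0.05 there were 7, all higher, where 2.93% of all tested genes were higher. This list was chosen with earlier results of these data known.

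Fat cell markers were lowest on non-runner B as well. The summed intensity of the 8 tested markers, of 10 listed, was 3245, 3154 and 3456 in runners A, B and C, against 3467, 2691 and 3537 in non-runners A, B and C. Schwann cell and nerve markers, some of which belong to cells rich in cholesterol synthesis, summed to 1126 to 1293 in runners and 1509 to 1751 in non-runners. This covers 7 tested genes of 12 listed, all 7 lower in value. Pmp22 was the largest part of the sum, at 770.8 to 814.2 in runners and 897.2 to 1170.0 in non-runners. Endothelial markers summed to 301 to 367 in runners and 379 to 475 in non-runners over 5 tested genes of 9 listed, of which 4 were lower and 1 higher in value. Egfl7 had the largest difference of these 5. It measured 37.2, 34.1 and 14.6 in runners A, B and C, against 86.7, 140.1 and 129.7 in non-runners A, B and C. The 1 higher was Pecam1, the brightest, with means of 171 in runners and 134 in non-runners. A dimmer Nos3 probe set (AF110508_at) differed by 0.40 on the log2 scale, against -0.51 in the brightest Nos3 probe set. Of the tested markers in these 3 lists, none was at 0 on any array. By limma 0 fat cell, endothelial or nerve markers passed after adjustment. In each of the endothelial and nerve lists, 3 were lower at an unadjusted p under 0.05, where 4.48% of all tested genes were. Among fat cell markers 1 was higher, Fabp4, and 1 lower, Lpl, at that level, where 2.93% of all tested genes were higher. Their log2 differences were 0.51 ± 0.16 and -0.38 ± 0.15 (SE, limma adjusted p = 0.533 and 0.585). The runner range of the fat cell sum lies within the non-runner range, while these single markers differed in opposite directions. The nerve and endothelial sums lie in the opposite direction to the members. For the endothelial sum this rests largely on Egfl7, while Pecam1 went the other way. The part of these 3 lists in the members' values was not tested.

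**Figure D4:**
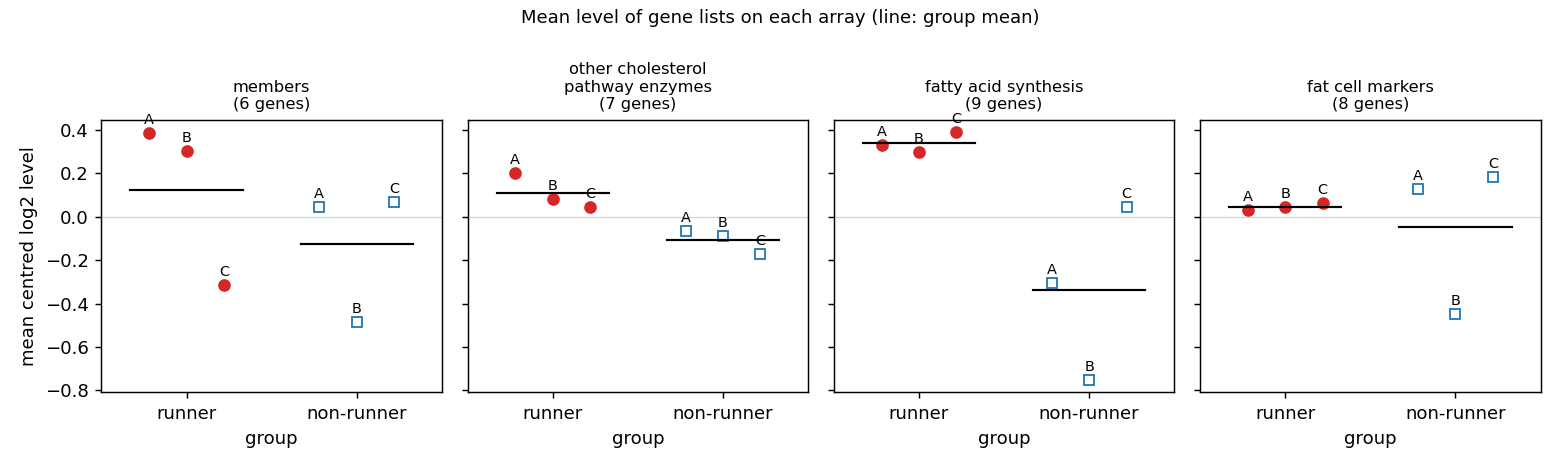
Mean log2 level of each gene list on each array, each gene relative to its mean over 6 arrays, with runners (filled circles) left of non-runners (open squares), letters for the arrays and lines for group means. The members overlap between groups, with runner C at -0.32 and non-runner B at -0.48, whereas the other pathway enzymes and the fatty acid synthesis genes do not overlap.

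None of the pathway's regulators passed the test. Of 16 listed, 11 were on the array and 7 were tested: 3 were higher and 4 lower in value, with a median log2 difference of -0.014. By limma, in each gene's brightest tested probe set, 0 passed after adjustment and 0 had an unadjusted p under 0.05. Srebf1, which encodes an SREBP, measured 105.9, 107.4 and 116.4 in runners A, B and C, against 104.4, 43.6 and 115.4 in non-runners A, B and C. Only non-runner B was low, and the log2 difference was 0.42 ± 0.33 (SE, limma adjusted p = 0.756).

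Nr1h2, an LXR oxysterol receptor that promotes cholesterol export, measured 285 ± 24.4 in runners and 318 ± 13.3 in the non-runners (SD, n = 3 each, limma adjusted p = 0.786). Nr1h3, the other LXR, measured 37.3 ± 8.7 in runners and 36.7 ± 5.0 in the non-runners, under the control level. Nfyc and Nfyb, subunits of the CCAAT-binding NF-Y, measured 390 ± 40.6 and 46.3 ± 7.1 in runners, and 404 ± 61.2 and 49.3 ± 11.2 in non-runners. The groups overlapped for Nr1h3, Nfyc and Nfyb in these probe sets and did not for Nr1h2, which was lower on every runner array in normalized values, where 8.41% of all tested genes were. A dimmer Nfyc probe set (U17607_at) measured 60.9 ± 3.8 in runners and 46.7 ± 6.9 in non-runners. There the log2 difference was 0.35 ± 0.15 (SE, limma unadjusted p = 0.044, adjusted p = 0.601). All runners lay above all non-runners in it, where 7.13% of all probe sets did so, and the Nfyc probe sets thus disagreed.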

How the data were processed

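The deposited table holds intensity values on a linear scale, 1 per probe set and array, and the sources used here do not name the authors' software. From the values, each array's mean without the highest and lowest 2% was close to 100.1, as scaling to a common target would give. Array medians ran from 28.5 to 32.2, a ratio of 1.13, so log2(intensity + 2.4) was quantile normalized; 2.4 is the 10th percentile of positive values. The fit left out 59 control probe sets and, of the rest, the dimmest 40%. It contrasted runners with non-runners by lmFit and eBayes of limma 3.58.1 in R 4.3.3, two-sided, adjusted by Benjamini-Hochberg over 5244 probe sets at a threshold of 0.05. The procedure was tested on simulated data whose changes were all larger than the members' differences. It was not tested on changes as small as theirs. Fold changes on this scale understate those of dim genes. An array has no read depth, so the number of arrays limits the precision.

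The platform annotation named 1 gene for 7006 probe sets, more than 1 for 308 and none for 1426. A gene's brightest tested probe set stood for it. The members and gene lists were chosen with earlier results of these data known. The genes named were all members, up to 6 genes of each described list in order of brightness, and the 6 genes most correlated with the members; Nsdhl, Scarb1, Hbb, Acta2 and Ucp1 were added for the results they bear on. Alternatives were other pseudocounts, normalizations, filters and variance models, a replicate block, the 3′/5′ ratio as covariate, array weights, the mean of probe sets, and leaving out each array. Figures were drawn with matplotlib 3.10.9.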

Additional observations from a re-analysis of the deposited data

How the results depend on the processing

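In every alternative that was run, 0 member probe sets were called higher and 0 lower by limma, also with the chip letter as a replicate block, where the member median stayed at 0.26 because a block leaves the differences of balanced groups unchanged. The labels do not say that arrays of the same letter are pairs. Deviations from the group means correlated at -0.085, -0.041 and -0.051 between such arrays, so no pairing was seen. The count at an unadjusted p under 0.05 did change. It was 1 with a pseudocount of 16, no quantile normalization, limma-trend, array weights or the dimmest 60% left out. Without runner C it was 4 of 16, and 1 without runner B or any single non-runner array. In the other alternatives it stayed at 0. The share over all probe sets in these settings is not given here. Among the 13 alternatives with all 6 arrays, the median ran from 0.13 to 0.30. With any single array removed it ran from 0.051 to 0.47. One alternative, keeping only member probe sets with a mean above the control level, was chosen after seeing the data and left 12 probe sets, all above 0. Fdps, Idi1 and Insig1 stayed above 0 throughout, with leave-one-out ranges of 0.12 to 0.58, 0.012 to 0.70 and 0.31 to 0.57. The sign turned for the other enzymes. With the beta-actin 3′/5′ ratio as covariate the log2 difference was -0.036 for Sqle and -0.22 for Fdft1, and with array weights it was -0.022 for Cyp51; the cause was not tested. As arrays were left out, it ran from -0.070 to 0.31 for Sqle, -0.13 to 0.51 for Fdft1 and -0.020 to 0.31 for Cyp51. All 3 fell below 0 without non-runner B, Sqle also without runner A or runner B, and Cyp51 also without runner A. Signal limits the reading of Fdft1, with 2 of its 4 probe sets under the control level on average.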

Other observations

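Genes that take up, store and export cholesterol had values on both sides of 0. Of 19 listed, 12 were on the array and 11 were tested, 6 higher and 5 lower in value, with a median log2 difference of 0.0063. By limma 0 passed after adjustment. Dbi (higher) and Scarb1 (lower) had an unadjusted p under 0.05, where 2.93% of all tested genes were higher and 4.48% lower. Dbi, which binds acyl-CoA and the mitochondrial protein Tspo, measured 423.5, 462.8 and 365.6 in runners A, B and C, against 325.7, 207.3 and 321.9 in non-runners A, B and C (log2 difference 0.56 ± 0.21 SE, limma adjusted p = 0.585). All runners lay above all non-runners. Apoe, an apolipoprotein of cholesterol transport, measured 834 ± 89.0 in runners and 857 ± 137 in the non-runners (SD, n = 3 each), and Tspo 614 ± 10.4 in runners and 637 ± 77.8 in non-runners. A dimmer Apoe probe set measured 592 ± 117 in runners and 442 ± 92.6 in non-runners (log2 difference 0.43 ± 0.21 SE, limma adjusted p = 0.650). Scarb1, a receptor for high density lipoprotein named after its values were seen, measured 146.7, 146.0 and 106.6 in runners A, B and C, against 212.9, 153.5 and 202.2 in non-runners A, B and C (log2 difference -0.51 ± 0.20 SE, limma adjusted p = 0.589). Its other probe sets differed by 0.22 and -0.046, so the direction rests on 1 probe set.

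Electron donors and enzymes that branch from the pathway were also mixed, with 3 higher and 3 lower of 6 tested genes, 0 passing limma's test after adjustment and 0 at an unadjusted p under 0.05. Cyb5a, the cytochrome that feeds electrons to sterol oxidases, measured 361.1, 308.4 and 302.8 in runners A, B and C, against 289.6, 268.2 and 241.9 in non-runners A, B and C (limma adjusted p = 0.693). Cyb5r3, the reductase that recharges it, measured 609 ± 121 in runners and 897 ± 219 in the non-runners (SD, n = 3 each) in its brightest probe set, at a log2 difference of -0.52 ± 0.23 (SE, limma adjusted p = 0.625). Other Cyb5r3 probe sets differed by 0.33, 0.078, -0.15 and -0.35, so they disagreed in sign. Por, which supplies electrons to Cyp51 and Sqle, measured 141 ± 12.2 in runners and 149 ± 15.5 in non-runners in its brightest probe set. The log2 difference was -0.059 there and 0.10 and 0.38 in its dimmer probe sets, which also disagreed with it in sign.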
